A study of Mus musculus with 10 samples.

Results

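Natural killer (NK) cells recognise tumor cells through germline-encoded receptors, and 6 genes that mark these cells were followed here: *Klrb1c*, *Klrk1*, *Klrd1*, *Klrc1*, *Ncr1* and *Eomes*. They were chosen by symbol, 6 of the 55401 gene rows counted in each tumor, and the rule names them without a threshold on any measured value. Bulk RNA was sequenced from 10 subcutaneous B16F10 (B16, a C57BL/6 mouse melanoma line) tumors collected on day 15. In 5 tumors the injected cells were *Mir25* knockout (KO), and in 5 they carried a non-targeting control (NTC) guide. The hosts were female C57BL/6J mice of 9 to 12 weeks, and every mouse, KO or NTC, received the same combination therapy (Comb). GVAX, a vaccine of tumor cells that secrete GM-CSF, was injected on days 1 and 4. The antibody αPD-1 followed on days 6, 9 and 12 at a dose of 10 mg/kg. *Mir25* was edited in the implanted tumor cells only, so the NK cells of both groups were host cells with an intact *Mir25* locus. The labels do not say which guide or clone gave rise to each KO tumor.

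NK cells balance activating against inhibitory signals, and they kill a target when activation prevails. NKG2D (*Klrk1*) binds stress-induced ligands, and NKp46 (*Ncr1*) is an activating natural cytotoxicity receptor. CD94 (*Klrd1*) pairs with NKG2A (*Klrc1*) into an inhibitory receptor for the nonclassical MHC molecule Qa-1, which *H2-T23* encodes. NK1.1 (*Klrb1c*) is the surface antigen by which NK cells are usually gated in this strain, and *Eomes* encodes the T-box factor of conventional NK cell maturation. *Klrk1*, *Klrd1*, *Klrc1* and *Eomes* are also used by activated or memory CD8+ T cells, whereas *Ncr1* and *Klrb1c* are more restricted to NK cells and related innate lymphocytes.

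None of the 6 genes differed between KO and NTC tumors beyond the spread between tumors. Relative to NTC, 5 of 6 had a higher fitted level in KO tumors, with log2 fold changes from 0.41 for *Ncr1* to 1.25 for *Eomes*, and *Klrb1c* had a lower one, at -0.22. The edgeR quasi-likelihood test, adjusted by Benjamini-Hochberg over 15821 genes, called 0 of 6 (absolute log2 fold change over 1 and adjusted p under 0.05). Unadjusted, 0 of 6 had a p under 0.05, and DESeq2 likewise called 0 and had 0 with an unadjusted p under 0.05. Over the 105 other fits of single members, 0 were called and 10 had an unadjusted p under 0.05. Over all genes tested, 0.019% were called, 8.85% had an unadjusted p under 0.05 and 51.3% had a log2 fold change above 0. For DESeq2 the shares were 0.609% called and 10.1% with an unadjusted p under 0.05. KO and NTC values overlapped for all 6 members, while 2.34% of all genes tested had groups that did not overlap. The median log2 fold change of the members was 0.89, against 0.01 for all genes tested. In bulk tumor RNA, fewer cells of a type and less RNA per cell cannot be told apart, so these values are levels in tumor tissue.

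Each tumor had 11896643 to 28682130 reads on genes. NTC replicate 1 stood apart from the other tumors. It had the lowest total, 11896643 reads against at least 23243707 elsewhere, the most genes with a count, 33193 against at most 25435, and the highest share of file entries on no annotated feature, 42.9% against at most 28.2%. Member results are therefore given with and without it. The *Mir25* row held 0 reads in all 10 tumors, so it does not check the KO labels in these libraries. Melanoma markers were high in every tumor, and 7 of 7 passed the filter on low counts. *Pmel*, a melanosome protein, ranged from 2595 to 5525 CPM.

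The product deleted in the tumor cells is shown first because it defines the comparison. Mature miR-25-3p is encoded on the minus strand at chr5:138165332-138165353 (GRCm38.p6, sequence from RefSeq), and capitals mark its seed, bases 2 to 8.
mmu-miR-25-3p: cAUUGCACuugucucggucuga

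*Klrd1*, *Klrk1* and *Klrc1* lie close together in the NK gene complex on chromosome 6, at chr6:129591782-129598775 (plus strand), chr6:129610323-129623864 (minus strand) and chr6:129666015-129678973 (minus strand). *Klrb1c* lies on the same chromosome at chr6:128778485-128789215 (minus strand). *Ncr1* is at chr7:4337724-4345164 (plus strand) and *Eomes* at chr9:118478212-118486132 (plus strand). These are whole gene models of GENCODE M21 on GRCm38. Promoter windows were found in the RefSeq table for 5 of 6 members, all but *Klrd1*. The 250 bases before the RefSeq start were searched on both strands for 2 short motifs of lymphocyte factors. Both were chosen after the windows were seen, so their counts describe these windows and nothing is read from them. The RUNX core, TGTGGT, was present in 4 of 5 windows, against 14% of 32851 promoter windows of the same length. The T-box core, written GTGTGA, was present in 1 of 5, that of *Ncr1*, against 12.3%. The *Eomes* window held neither. The windows with RUNX letters are printed 5′ to 3′ on the gene's strand, with those letters in capitals. They are chr6:128788642-128788891 for *Klrb1c*, chr6:129623865-129624114 for *Klrk1*, chr6:129678974-129679223 for *Klrc1* and chr7:4337465-4337714 for *Ncr1*. The RefSeq start of *Klrb1c* lies inside the GENCODE M21 model given above, and so does its window. The match began 89, 129 and 87 bases before the start in *Klrb1c*, *Klrk1* and *Klrc1*, and 176 and 41 bases before it in *Ncr1*. The *Klrc1* match and the nearer *Ncr1* match are on the opposite strand, so the reverse complement is in capitals there. A match is a description of the sequence, and binding was not measured here.
Klrb1c: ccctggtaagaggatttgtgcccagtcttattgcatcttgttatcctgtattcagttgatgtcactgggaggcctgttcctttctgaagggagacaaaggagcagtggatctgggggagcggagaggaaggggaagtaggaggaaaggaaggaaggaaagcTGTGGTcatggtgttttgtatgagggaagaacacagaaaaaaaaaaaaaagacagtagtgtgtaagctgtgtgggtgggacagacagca
Klrk1: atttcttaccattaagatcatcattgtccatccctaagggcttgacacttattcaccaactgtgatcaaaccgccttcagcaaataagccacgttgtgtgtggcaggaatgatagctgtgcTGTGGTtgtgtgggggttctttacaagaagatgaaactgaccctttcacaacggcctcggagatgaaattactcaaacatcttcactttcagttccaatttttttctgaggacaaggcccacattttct
Klrc1: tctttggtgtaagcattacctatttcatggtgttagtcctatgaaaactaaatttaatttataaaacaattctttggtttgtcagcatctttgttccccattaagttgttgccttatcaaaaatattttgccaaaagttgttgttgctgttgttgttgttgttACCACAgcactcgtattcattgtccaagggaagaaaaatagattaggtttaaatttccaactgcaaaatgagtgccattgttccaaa
Ncr1: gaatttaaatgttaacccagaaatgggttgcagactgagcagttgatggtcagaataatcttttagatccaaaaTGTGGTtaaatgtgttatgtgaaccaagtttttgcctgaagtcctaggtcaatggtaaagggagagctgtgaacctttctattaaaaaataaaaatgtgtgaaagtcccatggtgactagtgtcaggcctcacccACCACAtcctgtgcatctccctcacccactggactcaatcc

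The first pair compared was the inhibitory receptor CD94/NKG2A. *Klrd1* (ENSMUSG00000030165.16), the CD94 chain, had 6.72, 15.9, 4.11, 3.42 and 22.5 CPM (counts scaled to a common library size with TMM factors) in KO replicates 1 to 5. In NTC replicates 1 to 5 it had 13.5, 2.36, 3.94, 1.79 and 6.45 CPM. KO replicates 5 and 2 were above every NTC tumor, and the other 3 KO tumors lay within the NTC range. The means were 10.5 ± 8.34 CPM in KO and 5.60 ± 4.75 CPM in NTC (SD, n = 5 each). KO over NTC, the log2 fold change was 0.94 (SE 0.67), with an adjusted p of 0.717 by edgeR. Without NTC replicate 1 it was 1.49 (SE 0.61), with an unadjusted p of 0.0351 and an adjusted p of 0.223 by edgeR. Without KO replicate 5 the log2 fold change was 0.46.

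*Klrc1* (ENSMUSG00000030167.15), the NKG2A chain that carries the inhibitory signal, followed nearly the same order, with KO replicate 4 and NTC replicate 2 exchanged. It had 13.5, 20.5, 7.24, 3.93 and 31.6 CPM in KO replicates 1 to 5, and 14.7, 4.17, 4.67, 2.68 and 10.6 CPM in NTC replicates 1 to 5. KO replicates 5 and 2 again exceeded every NTC tumor, and KO replicate 4 was below 4 of the 5 NTC tumors. The means were 15.4 ± 11.1 CPM in KO and 7.36 ± 5.08 CPM in NTC (SD, n = 5 each), for a log2 fold change of 1.08 (SE 0.61) and an adjusted p of 0.638 by edgeR. Without KO replicate 5 the log2 fold change was 0.64. Without NTC replicate 1 the log2 fold change was 1.43 (SE 0.59), the unadjusted p was 0.0369 and the adjusted p was 0.226. *Klrd1* and *Klrc1* were the only members with an unadjusted p under 0.05 in that fit, 2 of 6, where 20.1% of all genes tested were under it. The ratio of *Klrc1* to *Klrd1* reads, which compares the chains within a library, was 1.15 to 2.01 in KO tumors and 1.09 to 1.76 in NTC tumors, with overlapping ranges.

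*Klrc1* shares sequence with its neighbours. Of its distinct transcript 50-mers, 38.6% also occur in transcripts of another gene, above all *Klrc2*, which encodes the activating NKG2C. Reads that cannot be placed between such copies are by default not counted by HTSeq, so *Klrc1* and *Klrc2* levels are uncertain to that extent. *Klrc2* drew 175 reads in the KO tumors against 1903 on *Klrc1*, and 104 against 755 in the NTC tumors. *Klrc2* had a log2 fold change of 0.67 (SE 0.64, adjusted p 0.779 by edgeR). No 50-mer of *Klrd1*, *Klrk1* or *Ncr1* was shared with another gene.

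Among the activating receptors, *Klrk1* (ENSMUSG00000030149.15) had the most reads, 4103 over the 10 tumors. Its levels were 16.1, 39.3, 8.05, 5.59 and 41.6 CPM in KO replicates 1 to 5. In NTC replicates 1 to 5 they were 22.8, 3.74, 13.9, 4.72 and 17.7 CPM. KO replicates 5 and 2 were the 2 highest of all tumors, and the other 3 KO tumors were below NTC replicate 1 and NTC replicate 5. The means were 22.1 ± 17.2 CPM in KO and 12.6 ± 8.23 CPM in NTC (SD, n = 5 each). For NKG2D the log2 fold change was 0.83 (SE 0.66), with an adjusted p of 0.739 by edgeR, and 1.10 (SE 0.67) with an adjusted p of 0.375 without NTC replicate 1. Without KO replicate 5 the log2 fold change was 0.475.

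*Ncr1* (ENSMUSG00000062524.4), the most NK-restricted of the receptors, was low in every tumor. It drew 36, 48, 20, 26 and 48 reads in KO replicates 1 to 5, or 1.48, 1.82, 0.674, 0.937 and 2.14 CPM. In NTC replicates 1 to 5 it drew 19, 10, 53, 3 and 26 reads, or 2.56, 0.328, 1.67, 0.122 and 0.902 CPM. The highest value was that of NTC replicate 1, and the 2 lowest were those of NTC replicates 2 and 4. NTC replicate 1 had a TMM factor of 0.628, against 0.968 to 1.11 in the other tumors, which raises its CPM. Its first place for *Ncr1* depends on that factor. The 3 reads of NTC replicate 4 have an exact Poisson 95% interval of 0.619 to 8.77 reads, which covers counting error only. For *Ncr1* the log2 fold change was 0.41 (SE 0.68, adjusted p 0.879 by edgeR) over all tumors and 0.84 (SE 0.63, adjusted p 0.466) without NTC replicate 1. The log2 fold change was 0.10 without NTC replicate 4 and 0.16 without NTC replicate 2.

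*Klrb1c* (ENSMUSG00000030325.16), encoding NK1.1, was the only member whose direction turned when 1 tumor was left out. KO replicates 1 to 5 had 22, 40, 16, 6 and 47 reads, or 0.902, 1.52, 0.539, 0.216 and 2.09 CPM. NTC replicates 1 to 5 had 28, 3, 43, 1 and 37 reads, or 3.77, 0.0985, 1.36, 0.0407 and 1.28 CPM. NTC values spanned 92.8-fold, with the highest and the lowest of all 10 tumors in that group. The single read of NTC replicate 4 has an exact Poisson 95% interval of 0.0253 to 5.57 reads. The log2 fold change was -0.22 (SE 0.97, adjusted p 0.958 by edgeR), and it was 0.54 (SE 0.89, adjusted p 0.757) without NTC replicate 1 and 0.044 without KO replicate 4. Of its distinct 50-mers, 17% occur in other gene models, above all *Gm44511*, which overlaps it on the same strand over 413 bases and held 0 reads in all 10 tumors. *Klrb1c* also shares 107 of them with *Klrb1a*, which drew 69 reads in the KO and 14 in the NTC tumors against 131 and 112 on *Klrb1c*. Reads of the shared stretches are uncertain between these genes.

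*Eomes* (ENSMUSG00000032446.14), the transcription factor, had the highest fold change of the 6. It drew 67, 120, 38, 26 and 107 reads in KO replicates 1 to 5, or 2.75, 4.56, 1.28, 0.937 and 4.76 CPM. In NTC replicates 1 to 5 it drew 16, 9, 53, 9 and 48 reads, or 2.16, 0.295, 1.67, 0.366 and 1.67 CPM. KO replicates 1, 2 and 5 were above every NTC tumor, 3 of 5, and KO replicates 3 and 4 lay inside the NTC range. The means were 2.86 ± 1.78 CPM in KO and 1.23 ± 0.846 CPM in NTC (SD, n = 5 each). The log2 fold change was 1.25 (SE 0.65), with an unadjusted p of 0.0807 and an adjusted p of 0.625 by edgeR. Without NTC replicate 1 it was 1.46 (SE 0.66, adjusted p 0.252). The exons of *Eomes* overlap those of *Gm33460* on the opposite strand over 118 bases. *Gm33460* had 8, 9, 9, 16 and 13 reads in KO replicates 1 to 5 and 11, 44, 28, 29 and 17 in NTC replicates 1 to 5, the opposite direction to *Eomes* (log2 fold change -1.36, SE 0.35, adjusted p 0.239 by edgeR). The strand setting of the counting is not given in the sources used here, so the assignment of reads on these 118 bases is uncertain. They are a small part of the 4155 exon bases of *Eomes*.

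**Figure D1:**
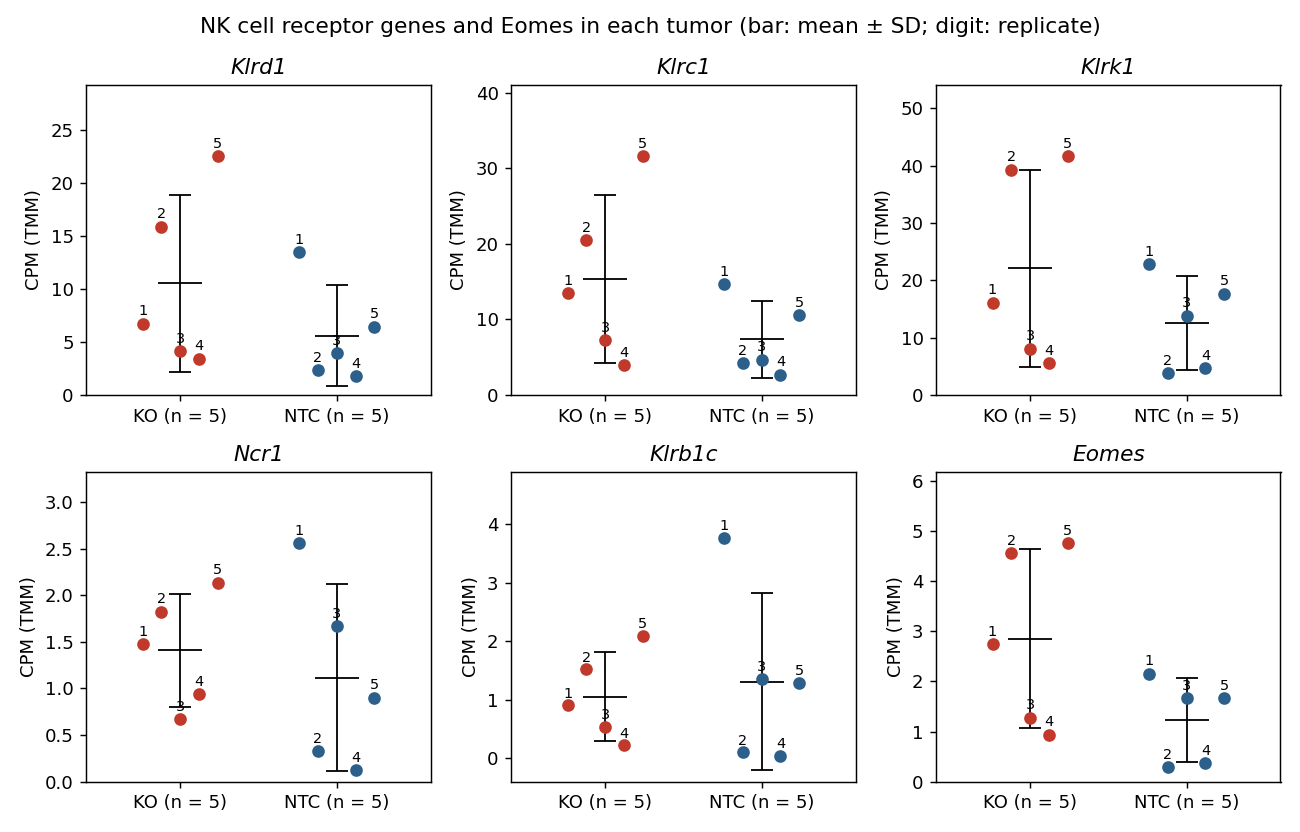
Level of each member in every tumor, in CPM normalized by TMM, for KO and NTC tumors (n = 5 each). Points are tumors with their replicate number, and the bar is the mean ± SD. KO replicates 2 and 5 are the highest KO tumors and NTC replicate 1 the highest NTC tumor in every panel, NTC replicates 2 and 4 are the lowest NTC tumors, and the groups overlap throughout.

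The members moved together from tumor to tumor. KO replicate 5 was highest for 4 of 6 members and NTC replicate 1 for the other 2, *Ncr1* and *Klrb1c*. The first place of NTC replicate 1 for *Ncr1* depends on its low TMM factor. KO replicate 2 was in the top 3 for all 6. NTC replicates 2 and 4 were in the bottom 3 for all 6, and one or the other was the lowest tumor for each. Summed over the members, KO replicates 1 to 5 had 41.4, 83.6, 21.9, 15.03 and 104.7 CPM. NTC replicates 1 to 5 had 59.4, 11.0, 27.2, 9.72 and 38.5 CPM. Within the KO group, the highest tumor exceeded the lowest by 3.17-fold for *Ncr1* to 9.67-fold for *Klrb1c*, a spread wider than the ratio of KO to NTC means, which ran from 0.804 for *Klrb1c* to 2.32 for *Eomes*. Over the 10 tumors, Spearman's rho between pairs of members ranged from 0.794 (*Klrc1* and *Ncr1*) to 0.988 (*Klrd1* and *Klrc1*). These tumors share 2 groups and differ in the depth of 1 library, so the correlations are descriptions. Without NTC replicate 1 the 2 pairs had 0.767 and 0.983.

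**Figure D2:**
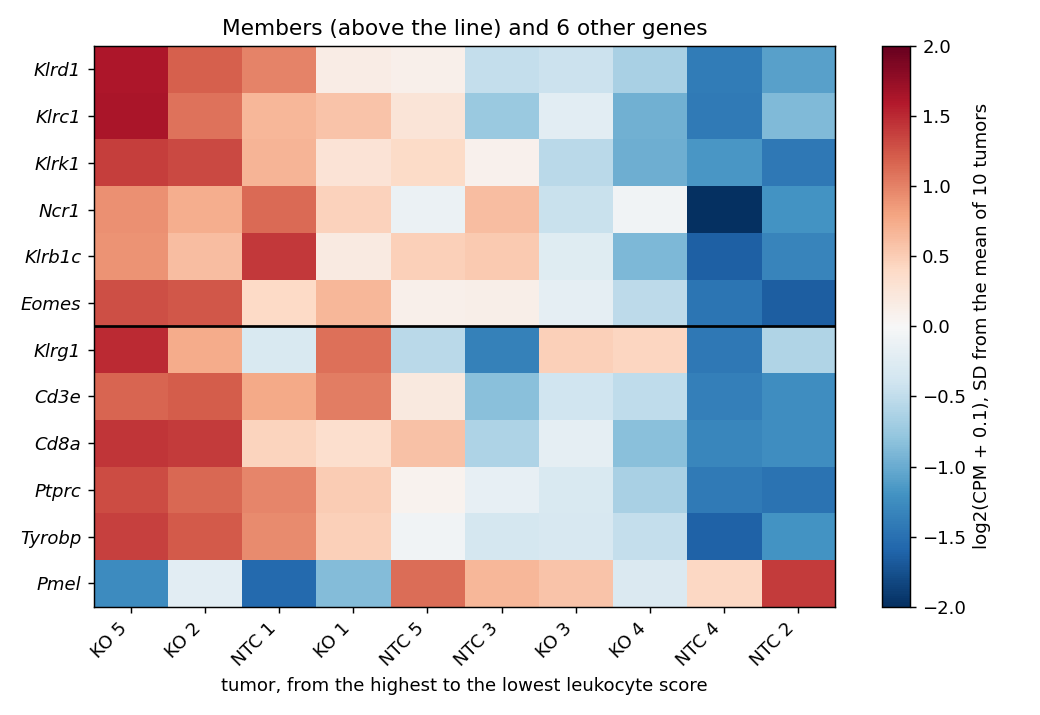
Level of the 6 members (above the line) and 6 other genes in the 10 tumors, as log2(CPM + 0.1) in SD from each gene's mean. Tumors run from the highest leukocyte score (KO replicate 5) to the lowest (NTC replicate 2). Members, T cell genes and *Ptprc* fall in much the same order, and *Pmel* tends to run against it.

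Compared per kilobase of exon, *Klrd1* had the highest level, with a mean of 6.30 CPM per kilobase over the 10 tumors. *Klrc1* followed at 5.72, and the pair did not separate, with *Klrd1* above *Klrc1* in 6 of 10 tumors. Reads on shared sequence may be missing from *Klrc1* (38.6% of its 50-mers shared) but not from *Klrd1* (0%), so their order is uncertain. *Klrk1* came next at 2.41 and was below *Klrc1* in 10 of 10 tumors. *Ncr1* had 0.820, below *Klrk1* in 10 of 10, and *Eomes* had 0.492, below *Ncr1* in 9 of 10. *Klrb1c* was lowest at 0.399 and was below *Eomes* in 7 of 10, so these neighbours were close.

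The members followed the leukocyte content of the tumors. *Ptprc* encodes CD45, carried by all leukocytes, and ranged from 112.3 to 655.9 CPM in KO and from 53.1 to 484.4 CPM in NTC tumors. Spearman's rho of each member with the leukocyte score, the mean log2 CPM of 10 pan-leukocyte genes, was 0.867 (*Ncr1*) to 0.988 (*Klrk1*) over the 10 tumors. With the mean of 12 T cell genes it was 0.818 (*Ncr1*) to 0.988 (*Klrd1*), and with the melanoma markers -0.782 (*Ncr1*) to -0.588 (*Klrc1*). The summed T cell markers ranged from 38.4 to 254.0 CPM in KO and from 21.9 to 113.6 CPM in NTC tumors, and 12 of 12 had a higher fitted level in KO. The 7 macrophage markers summed to 902.9 to 3934 CPM in KO and 290.9 to 3329 CPM in NTC tumors, and 7 of 7 were higher.

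Each member was also set against *Ptprc* in the same tumor. *Eomes* was 0.726 to 0.865% of the *Ptprc* level in KO and 0.445 to 0.965% in NTC tumors. *Klrk1* was 4.98 to 6.91% in KO and 4.70 to 8.36% in NTC, and *Klrb1c* was 0.193 to 0.351% in KO and 0.0721 to 0.783% in NTC. For every member the KO and NTC ranges overlapped. The difference of the mean log2 ratios, KO minus NTC, was -0.33 for *Klrk1*, -0.31 for *Klrb1c*, -0.14 for *Klrd1* and *Ncr1*, -0.06 for *Klrc1* and 0.31 for *Eomes*. Leaving out NTC replicate 1, these differences were -0.48 for *Klrk1*, -0.02 for *Klrb1c*, -0.17 for *Klrd1*, -0.11 for *Ncr1*, -0.19 for *Klrc1* and 0.17 for *Eomes*. With the leukocyte score as a covariate in the edgeR fit, the log2 fold changes were 0.29 for *Eomes*, 0.14 for *Klrc1*, -0.042 for *Klrd1*, -0.20 for *Ncr1*, -0.31 for *Klrk1* and -1.13 for *Klrb1c*. Their median was -0.12, and 0 of 6 were called. The lowest unadjusted p was 0.0292, for *Klrb1c*, with an adjusted p of 0.329 by edgeR. With the T cell score as the covariate, *Klrb1c* was at -1.42 (adjusted p 0.451), *Klrk1* at -0.48 and *Eomes* at 0.17.

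**Figure D3:**
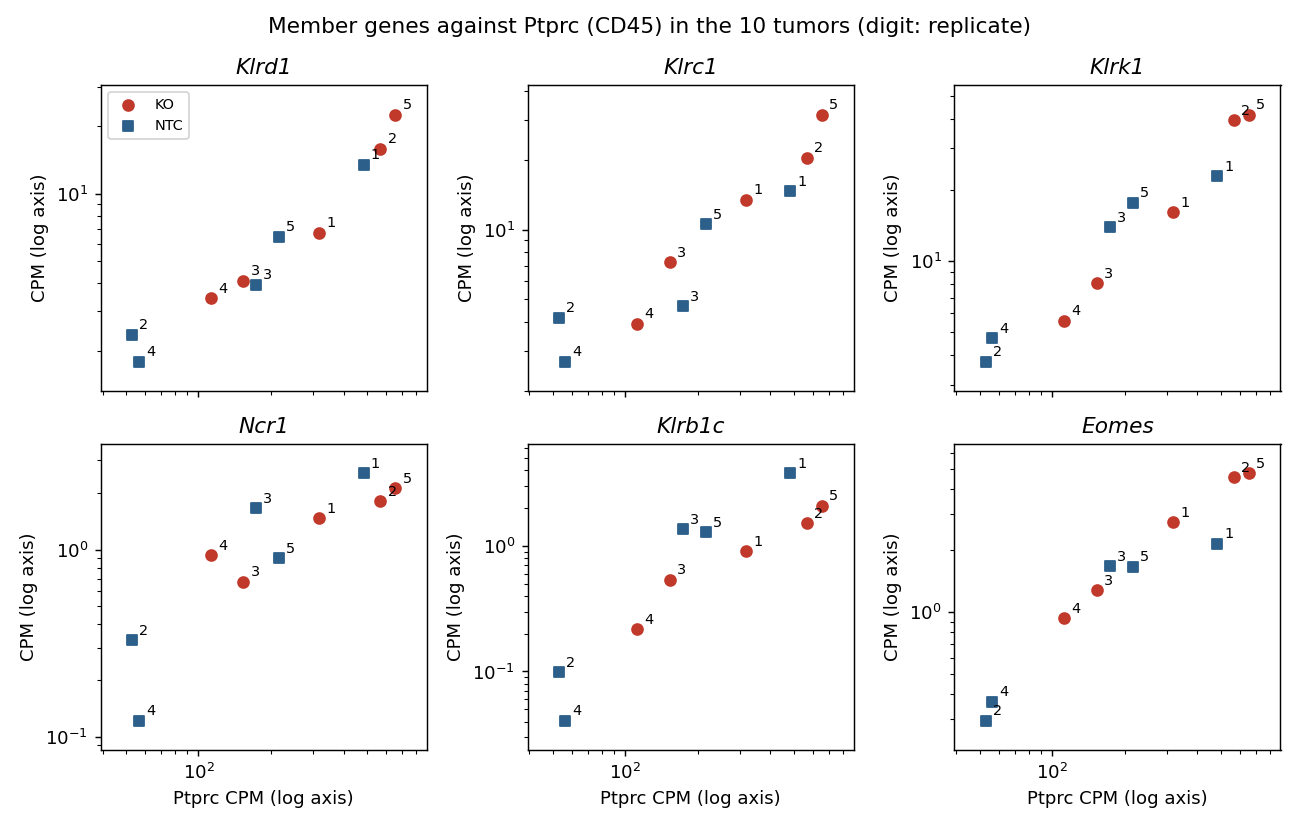
Each member's level against the level of *Ptprc* (CD45) in the 10 tumors, both in CPM on log axes, with circles for KO and squares for NTC and the replicate number beside each point. KO and NTC points lie along 1 band, and *Ncr1* and *Klrb1c*, with few reads, scatter most in the NTC tumors.

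**Figure D4:**
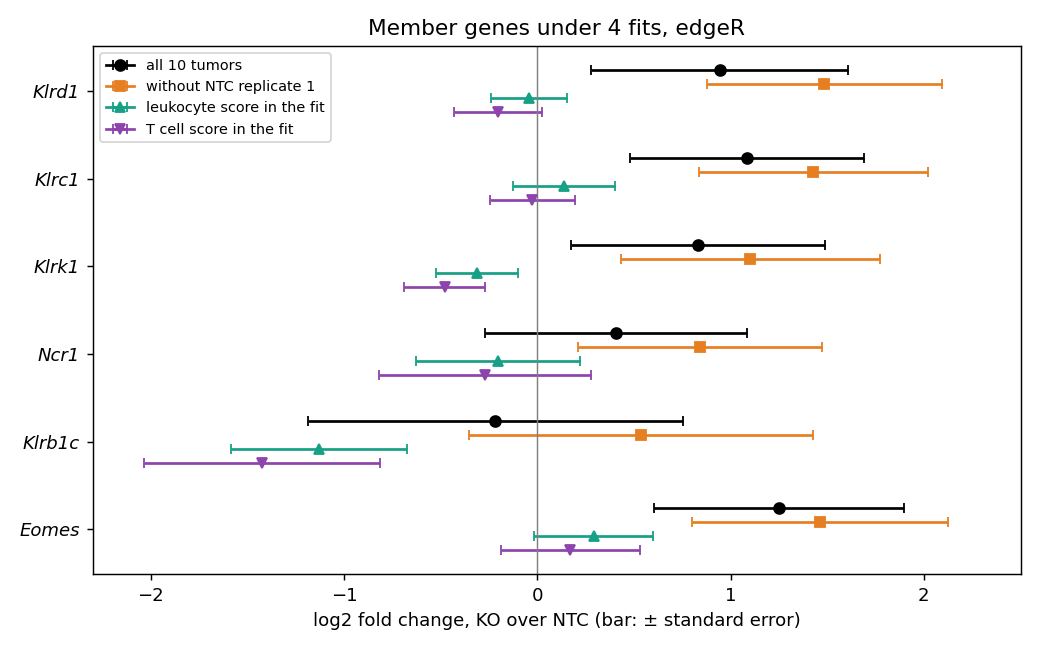
Log2 fold change of KO over NTC for each member under 4 edgeR fits, with bars of ± 1 standard error. Values without NTC replicate 1 lie to the right of those from all 10 tumors, and with a leukocyte or T cell score in the fit every value lies to the left of that from all 10 tumors. *Klrk1*, *Klrd1*, *Ncr1* and *Klrb1c* are then below 0 with either score and *Klrc1* with the T cell score, and *Klrb1c* lies furthest from 0.

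Genes with the most similar pattern were found by Spearman's rho with the members' mean standardised level over the 10 tumors, among 13906 genes. The tumors were in the same order, with rho 1.000, for 53 genes. Of these, *Hcls1*, *Traf3ip3*, *A130071D04Rik*, *Tmsb4x* and *Coro1a* had the highest Pearson's r, from 0.995 to 0.992. *Hcls1* encodes a hematopoietic actin regulator, *Coro1a* an actin-binding protein of leukocytes and *Tmsb4x* thymosin beta 4, an actin-sequestering peptide. *Coro1a* had a log2 fold change of 0.82 (SE 0.53, adjusted p 0.686 by edgeR) and *Tmsb4x* one of 0.74 (SE 0.58, adjusted p 0.738). *Ptprc* had rho 0.988, *Tyrobp* 0.988, *Cd8a* 0.952 and *Cd3e* 0.939.

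Other genes of NK recognition were read from lists around the same receptors. Of 20 other NK cell receptor genes, 16 passed the filter. By edgeR 0 were called, 2 had an unadjusted p under 0.05, 15 had a log2 fold change above 0, and the median was 0.91. That median was -0.17 with the leukocyte score as a covariate, where 7 of 16 were above 0. DESeq2 called 1 of them, *Klrg1*, against 0.609% of all genes, and 5 of 16 had an unadjusted p under 0.05 there. *Klrg1* encodes an inhibitory receptor for cadherins on mature NK and effector T cells. It had 1.52, 1.18, 0.977, 0.937 and 2.00 CPM in KO replicates 1 to 5, and 0.539, 0.427, 0.221, 0.203 and 0.451 CPM in NTC replicates 1 to 5. Every KO tumor was above every NTC tumor. All NTC values were at most 0.539 CPM, so they rest on few reads, and counting error is large at such levels. *Klrg1* was the only tested gene of all the lists, the members included, whose groups did not overlap, 1 of 139 (0.719%), below the 2.34% of all genes. The log2 fold change was 1.88 (SE 0.37, unadjusted p 0.000436), and the adjusted p was 0.138 by edgeR and 0.00309 by DESeq2, with 1.91 as the DESeq2 log2 fold change. With the leukocyte score as a covariate it was 1.55 (adjusted p 0.136 by edgeR), and without NTC replicate 1 it was 1.96 (adjusted p 0.0851). *Tigit*, an inhibitory receptor for *Pvr*, had a log2 fold change of 1.74 (SE 0.75, adjusted p 0.531 by edgeR), and *Cd27*, a costimulatory receptor that also grades NK maturation, 1.28 (SE 0.62, adjusted p 0.598).

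The Ly49 receptors (*Klra* genes), mouse receptors for classical MHC class I molecules, differ in how much sequence they share. Of their distinct transcript 50-mers, 20.7% in *Klra3*, 12.3% in *Klra7*, 4.68% in *Klra4* and 2.98% in *Klra1* also occur in other genes, and 0% in *Klra2* and *Klra17*, so reads are uncertain between copies for the first 4. Of 11, 6 passed the filter, 0 were called by edgeR or DESeq2, 0 had an unadjusted p under 0.05 by edgeR (1 by DESeq2), and 5 of 6 were higher with a median of 0.45. The same 6 genes had a median of 0.97 without NTC replicate 1. With the leukocyte score as a covariate their median was -0.52, and 1 of 6 was higher. *Klra2* ranged from 8.58 to 49.9 CPM in KO and from 2.85 to 45.8 CPM in NTC tumors. Bulk RNA does not show which cells carried it. Like the macrophage marker *Csf1r*, it was highest in KO replicate 5 and lowest in NTC replicate 4. *Klra3* had a log2 fold change of 1.41 (SE 0.71, adjusted p 0.617 by edgeR). *Klra1* was at -0.55 (SE 0.82, adjusted p 0.868) over all tumors and at 0.47 without NTC replicate 1, where it had 2.96 CPM against at most 0.756 in the other 9 tumors.

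Receptor signals pass through adaptor chains. Of 12 adaptor and proximal signalling genes, 11 passed the filter, 10 were higher with a median log2 fold change of 1.03, 0 were called by edgeR or DESeq2, and 0 (edgeR) and 1 (DESeq2) had an unadjusted p under 0.05. That median was 0.09 with the leukocyte score as a covariate, where 7 of 11 were higher. *Tyrobp*, encoding DAP12, ranged from 55.0 to 353.7 CPM in KO and from 17.6 to 230.5 CPM in NTC tumors, at a log2 fold change of 1.14 (SE 0.74, adjusted p 0.687 by edgeR). *Hcst*, encoding DAP10, the adaptor of NKG2D, had 0.613 to 7.78 CPM in KO and 0.0407 to 4.58 CPM in NTC tumors (log2 fold change 1.53, SE 0.94, adjusted p 0.667). *Fcer1g*, the adaptor of NKp46 and of Fc receptors, was at 0.49 (SE 0.69, adjusted p 0.86). Myeloid cells also express *Tyrobp*, *Hcst* and *Fcer1g*. *Zap70*, the receptor kinase of T and NK cells, was at 1.04 (SE 0.59, adjusted p 0.643), and *Sh2d1a*, the SLAM adaptor SAP, at 1.42 (SE 0.68, adjusted p 0.594).

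The ligands can come from tumor cells. Of 16 ligand genes, 12 had a row and 11 passed the filter, with 7 higher, a median log2 fold change of 0.20, 0 called by edgeR or DESeq2, and 3 (edgeR) and 4 (DESeq2) with an unadjusted p under 0.05. That median was -0.10 with the leukocyte score as a covariate, where 5 of 11 were higher. *Raet1a*, *Raet1b*, *Raet1c* and *H60a* were not analysed here. *H2-T23*, encoding the Qa-1 ligand of CD94/NKG2A, ranged from 190.6 to 607.4 CPM in KO and from 160.8 to 418.5 CPM in NTC tumors (log2 fold change 0.33, SE 0.32, adjusted p 0.784 by edgeR). It was at 0.14 without KO replicate 5, 0.16 without NTC replicate 4 and 0.51 without KO replicate 4. Among NKG2D ligands, *Ulbp1* was at 1.00 (SE 0.41) and *H60b* at -0.83 (SE 0.34), both with an adjusted p of 0.505 by edgeR. *Pvr*, the poliovirus receptor that CD226 and TIGIT bind, had 26.5 to 45.1 CPM in KO and 37.0 to 66.7 CPM in NTC tumors, at -0.51 (SE 0.18, unadjusted p 0.0191, adjusted p 0.438). These ligand values overlapped between the groups.

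Of 11 NK cell transcription factors other than *Eomes*, 10 passed the filter and 8 were higher, with a median of 0.47, 0 called by edgeR or DESeq2 and 0 with an unadjusted p under 0.05 by either. That median was -0.03 with the leukocyte score as a covariate, where 4 of 10 were higher. *Tbx21*, encoding T-bet, the T-box partner of *Eomes*, ranged from 0.433 to 5.43 CPM in KO and from 0.722 to 4.72 CPM in NTC tumors (log2 fold change 0.93, SE 0.71, adjusted p 0.733 by edgeR), and without NTC replicate 5 it was at 1.84. The ratio of *Eomes* to *Tbx21* reads was 0.677 to 2.17 in KO and 0.353 to 2.00 in NTC tumors. *Ikzf3*, encoding Aiolos, was at 1.19 (SE 0.72, adjusted p 0.661) and *Tox*, a factor of early NK development and of exhausted T cells, at 0.98 (SE 0.74, adjusted p 0.733) and at 1.70 without NTC replicate 5.

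Of 12 genes for NK cell cytokines and their receptors, 11 passed the filter. Of these, 11 were higher, with a median of 0.86, against 5 of 11 and -0.01 with the leukocyte score as a covariate. By edgeR 0 were called and 1 had an unadjusted p under 0.05, and by DESeq2 0 and 3. That gene was *Il12b*, the p40 chain of IL-12 made by myeloid cells, with 0.613 to 3.87 CPM in KO and 0.126 to 1.01 CPM in NTC tumors (log2 fold change 2.19, SE 0.71, adjusted p 0.367 by edgeR). *Il12rb1* and *Il12rb2*, the IL-12 receptor chains, were at 0.60 (SE 0.28, adjusted p 0.591) and 1.10 (SE 0.56, adjusted p 0.617). *Il2rb*, the shared chain of the IL-2 and IL-15 receptors, was at 0.83 (SE 0.55, adjusted p 0.698). *Il15*, the survival cytokine of NK cells, was at 0.18 (SE 0.34, adjusted p 0.896), and at 0.019 without KO replicate 5 and 0.40 without NTC replicate 1, with 5.59 to 13.2 CPM in KO and 5.25 to 14.0 CPM in NTC tumors.

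Of 16 cytotoxic effector genes, shared by NK and CD8+ T cells, 16 passed the filter. Of these, 14 were higher, with a median of 0.50, against 8 of 16 and -0.02 with the leukocyte score as a covariate. By edgeR 0 were called and 0 had an unadjusted p under 0.05, and by DESeq2 0 and 2. *Prf1*, encoding perforin, ranged from 17.6 to 72.9 CPM in KO and from 13.3 to 48.4 CPM in NTC tumors (log2 fold change 0.63, SE 0.46, adjusted p 0.727 by edgeR). *Gzmb* was at 0.41 (SE 0.52, adjusted p 0.843), *Gzmk* at 1.51 (SE 0.80, adjusted p 0.631) and *Gzma* at -0.08 (SE 0.59, adjusted p 0.979), the last with 25.9 CPM in NTC replicate 1 and 3.25 to 18.8 CPM elsewhere, and at 0.55 without that tumor. *Gzmb* turned to -0.088 without KO replicate 5. *Ifng*, the effector cytokine, was at 0.58 (SE 0.53, adjusted p 0.773). *Ctsw*, a cathepsin of cytotoxic cells, was at 1.14 (SE 0.57, adjusted p 0.617), and *Xcl1*, a dendritic cell chemoattractant, at 0.73 (SE 0.34, adjusted p 0.587).

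Of 11 trafficking and residency genes, 10 passed the filter. Of these, 8 were higher, with a median of 0.58, against 3 of 10 and -0.08 with the leukocyte score as a covariate. By edgeR 0 were called and 1 had an unadjusted p under 0.05, and by DESeq2 0 and 2. *Cxcr3*, the receptor for interferon-induced chemokines, had 3.57, 7.82, 3.87, 4.94 and 8.50 CPM in KO replicates 1 to 5 and 4.31, 1.31, 2.46, 2.20 and 2.39 CPM in NTC replicates 1 to 5. Only NTC replicate 1 reached into the KO range. Its log2 fold change was 1.20 (SE 0.36, unadjusted p 0.00666, adjusted p 0.307 by edgeR), and 1.42 (adjusted p 0.117) without that tumor. *Cxcr6*, a receptor of tissue-resident lymphocytes, was at 1.30 (SE 0.69, adjusted p 0.631), and *Itgae*, the CD103 chain, at 0.80 (SE 0.61, adjusted p 0.734).

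**Figure D5:**
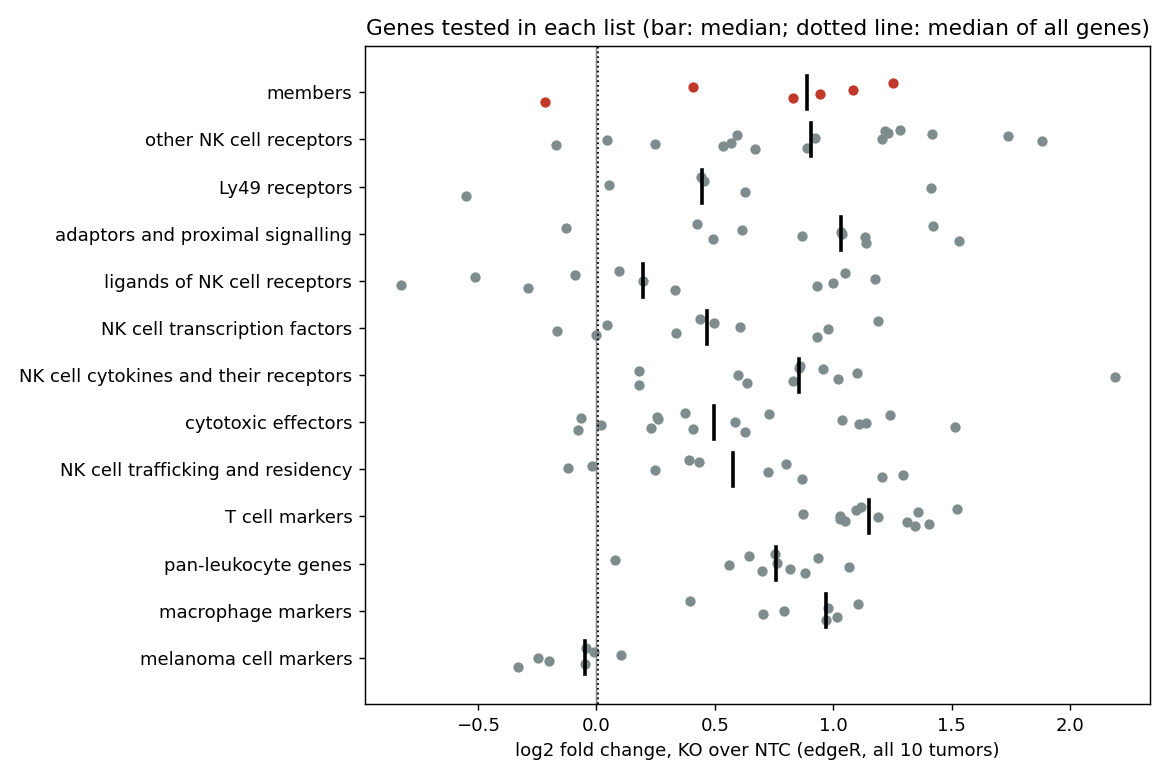
Log2 fold change of KO over NTC, all 10 tumors, for each gene tested in the member list and in 12 other lists, with the list median as a bar and the median of all genes, 0.01, as a dotted line. The member median of 0.89 lies between those of the pan-leukocyte genes (0.76) and the T cell markers (1.15), and melanoma markers lie near 0.

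T cell markers were set beside the members, since CD8+ T cells also use several of these genes. The median log2 fold change of the T cell markers was 1.15, with 0 of 12 called by edgeR or DESeq2, and 1 (edgeR) and 4 (DESeq2) with an unadjusted p under 0.05. That median was 0.14 with the leukocyte score as a covariate, where 9 of 12 were higher. *Cd3e*, a chain of the T cell receptor complex that NK cells lack on their surface, ranged from 1.91 to 11.4 CPM in KO and from 0.732 to 7.14 CPM in NTC tumors (log2 fold change 1.40, SE 0.75, adjusted p 0.631 by edgeR). *Cd3g* was at 1.31 (SE 0.55, adjusted p 0.516), and *Cd8a* at 1.03 (SE 0.59, adjusted p 0.646). The ratio of *Ncr1* to *Cd3e* reads was 0.157 to 0.491 in KO tumors and 0.167 to 1.26 in NTC tumors. The ratio of *Klrk1* to *Cd8a* reads was 0.773 to 1.12 in KO and 0.838 to 1.88 in NTC tumors. Pan-leukocyte genes had a median of 0.76 and macrophage markers 0.97, with 0 of 10 and 0 of 7 called by either tool and 0 of each with an unadjusted p under 0.05. Without NTC replicate 1 the medians were 1.23 and 1.65, and 6 of 10 and 7 of 7 had an unadjusted p under 0.05 by edgeR, against 20.1% of all genes in that fit. That tumor moved other medians in the same direction: without it, the members were at 1.26, the other NK cell receptors at 1.27, the adaptors at 1.37, the ligands at 0.40, the transcription factors at 0.89, the cytokine genes at 1.31, the effectors at 0.74, the trafficking genes at 0.99 and the T cell markers at 1.51, with 0 called in any of these lists by edgeR. Unadjusted p values under 0.05 then numbered 5 of 16 for the other receptors, 7 of 11 for the adaptors, 5 of 11 for the ligands, 3 of 10 for the transcription factors, 4 of 11 for the cytokine genes, 1 of 16 for the effectors, 3 of 10 for the trafficking genes and 4 of 12 for the T cell markers. The part of leukocyte content and of T cells in the members' values was not tested. The covariate fits above use scores from the same 10 tumors and cannot apportion it.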

How the data were processed

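Bulk RNA from 10 B16F10 tumors under Comb (5 KO, 5 NTC) was analysed, with groups and replicate numbers taken from the labels. According to the submitters' processing notes and the methods, FastQC, Trimmomatic, HISAT2, HTSeq and the mm10 genome were used. The strand setting and the annotation release are not given in the sources used here. The authors deposited raw counts per gene, without normalization, on 55401 gene rows. The HTSeq summary rows, 35.3 to 64.1% of each file's total, were left out of library sizes. Intervals on counts cover counting error only, since reads carry no molecular identifiers. Nothing in the labels says that replicates came from separate cultures, so p-values measure the spread between these tumors.

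KO was compared with NTC by edgeR 4.0.16 (quasi-likelihood test, TMM factors, filterByExpr, R 4.3.3, limma 3.58.1), with Benjamini-Hochberg adjustment over all genes tested. Calls required an absolute log2 fold change over 1 and an adjusted p under 0.05. Each standard error was obtained from the fold change and its F statistic (the size of the log2 value over the root of F). The script was tested on simulated data. Logarithms of CPM used a prior count of 2. Alternatives were DESeq2 1.42.0, RLE factors, no filter, at least 10 counts in every tumor, robust dispersions, a replicate block, a leukocyte or T cell score as a covariate, and each tumor left out in turn.

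The members and gene lists were chosen with earlier results of these data known. Named genes were the members, the 3 genes of lowest p in each list, genes whose groups did not overlap, a set fixed by role, and the 5 genes of most similar pattern (mean CPM of at least 1), whose ties were broken by Pearson's r after the data were seen. Gene positions, exon lengths, overlaps and shared 50-mers were read from GENCODE M21 (GRCm38), possibly another release than the authors counted on. Tables and figures used Python 3.11.15, pandas 2.3.3, numpy 2.4.6, scipy 1.17.1 and matplotlib 3.10.9.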

Additional observations from a re-analysis of the deposited data

Results flagged for a closer look

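In 140 comparisons of 1 tumor with its own group, 12 values lay far from the other 4 (gap over range above 0.71). That limit is passed about 1 in 20 times by independent normal values, and the values compared here are not independent. No value of the 6 members was among the 12. NTC replicate 1 accounted for 9. It had 11896643 reads on genes, where the other NTC tumors had 24145795 to 28682130. It had 33193 genes with a count, against 22192 to 23831. Its *Csf1r* level was 347.4 CPM against 29.0 to 119.5, and its *Fcer1g* level was 224.7 CPM against 18.9 to 76.6. *S100a8* had 26.0 CPM there and at most 0.486 in the rest of its group, and *S100a9* 36.4 CPM against at most 0.252. *Ms4a1* had 2.16 CPM against at most 0.525, *Klra1* 2.96 CPM against at most 0.726, and *Dct* 3251 CPM against at least 5393. In NTC replicate 5, *Tbx21* had 4.72 CPM against 0.722 to 1.08 in the other NTC tumors. In KO replicate 4, *Xcl1* had 0.649 CPM against at least 1.48 in the other KO tumors, and *Mylpf*, a skeletal muscle gene, 22.5 CPM against at most 4.41.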

How the results depend on the processing

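In every fit run for *Klrb1c*, *Klrk1*, *Klrd1*, *Klrc1*, *Ncr1* and *Eomes*, the member was not called. The lowest adjusted p over these fits was 0.223, for *Klrd1* without NTC replicate 1. *Klrb1c*, *Ncr1* and *Eomes* gave no value when at least 10 counts were required in every tumor. Leaving out each tumor in turn gave log2 fold changes of -0.62 to 0.54 for *Klrb1c* (0.044 without KO replicate 4), 0.47 to 1.10 for *Klrk1*, 0.46 to 1.49 for *Klrd1*, 0.64 to 1.43 for *Klrc1*, 0.10 to 0.84 for *Ncr1* and 0.99 to 1.47 for *Eomes*. Unadjusted p fell under 0.05 for *Klrc1* (0.0321) and *Eomes* (0.0352) with no filter, for *Klrc1* (0.0377) and *Eomes* (0.0436) without KO replicate 4, for *Klrd1* (0.0351) and *Klrc1* (0.0369) without NTC replicate 1, for *Klrb1c* (0.0292) with the leukocyte score, and for *Klrb1c* (0.0395) and *Klrk1* (0.0432) with the T cell score. Genes called over all genes numbered 3 in the reported fit, 1 to 17 when each tumor was left out (17 without NTC replicate 1), 6 with at least 10 counts in every tumor, 5 with robust dispersions, 10 with the leukocyte score, 7 with the T cell score and 96 with DESeq2. Causes were not tested.

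The labels name nothing that same-numbered tumors share. Deviations of same-numbered tumors correlated at 0.172, -0.287, 0.0788, 0.633 and 0.206 for replicates 1 to 5, over 0.1 in 3 of 5 pairs and highest with their own number in 2 of 5. Since not every pair was over 0.1, the numbers were not taken as pairs. With the replicate block, 1 gene was called, *Klrc1* was at 0.99 (unadjusted p 0.0309, adjusted p 0.431 by edgeR), and the direction turned for *Klrb1c* (0.33), *S100a8* (1.52), *S100a9* (1.79) and *Gzma* (0.17). 

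With the leukocyte score in the fit, the direction turned for *Klrk1* (-0.31), *Klrd1* (-0.042), *Ncr1* (-0.20), *Klra2* (-0.19), *Tbx21* (-0.051), *Itgae* (-0.11), *Cd28* (-0.006), *Cd79b* (-0.17), *Tyrp1* (0.022), *Dct* (0.010), *Fcer1g* (-0.28), *H2-T23* (-0.10), *Il2rb* (-0.059), *Il15* (-0.30), *Prf1* (-0.16), *Gzmb* (-0.29), *Ifng* (-0.35), *Hcls1* (-0.062), *Traf3ip3* (-0.038), *A130071D04Rik* (-0.078) and *Tmsb4x* (-0.021). With the T cell score it turned for *Klrk1* (-0.48), *Klrd1* (-0.20), *Klrc1* (-0.025), *Ncr1* (-0.27), *Klra2* (-0.39), *Tbx21* (-0.20), *Itgae* (-0.18), *Cd28* (-0.23), *Coro1a* (-0.057), *C1qb* (-0.044), *Cd79b* (-0.39), *Csf3r* (-0.10), *Tyrp1* (0.028), *Dct* (0.015), *Fcer1g* (-0.45), *H2-T23* (-0.18), *Il2rb* (-0.16), *Il15* (-0.36), *Prf1* (-0.25), *Gzmb* (-0.39), *Ifng* (-0.49), *Cd8a* (-0.055), *Ptprc* (-0.16), *Hcls1* (-0.20), *Traf3ip3* (-0.19), *A130071D04Rik* (-0.24) and *Tmsb4x* (-0.16). The score genes *Coro1a*, *Hcls1*, *Ptprc*, *Cd28* and *Cd8a* are part of these scores. Without a filter *Gzma* was at 0.02. Leave-one-out values spanned -0.47 to 0.55 for *Gzma*, -0.088 to 0.80 for *Gzmb*, -0.89 to 0.47 for *Klra1*, -1.19 to 3.10 for *S100a8* and -2.51 to 3.66 for *S100a9*. They spanned 0.019 (without KO replicate 5) to 0.40 (without NTC replicate 1) for *Il15* and 0.14 (without KO replicate 5) to 0.51 (without KO replicate 4) for *H2-T23*, with 0.16 without NTC replicate 4. Without KO replicate 5, *Ifng* was at 0.13, *Itgae* at 0.27, *Coro1a* at 0.49, *Fcer1g* at 0.19, *Klra2* at 0.30, *Prf1* at 0.33, *Hcls1* at 0.46, *Tmsb4x* at 0.44 and *Ptprc* at 0.56. Without KO replicate 2, *Tox* was at 0.60 and *Il2rb* at 0.55. *Tyrobp* was at 1.91, *Fcer1g* at 1.28, *Klra2* at 1.26, *Csf1r* at 1.84 and *Tmsb4x* at 1.27 without NTC replicate 1, and *Il2rb* was at 1.26 and *Prf1* at 0.95 without NTC replicate 5. Low reads limit *Klrb1c* and *Ncr1*, with 243 and 289 over the 10 tumors.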

Other observations

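Markers of other cells that a bulk tumor can hold gave these values. Of 4 B cell markers 2 passed the filter, of 4 neutrophil markers 3, of 6 skeletal muscle markers 1 and of 5 keratinocyte markers 0. Of those tested, 0 were called by edgeR or DESeq2, and 1 had an unadjusted p under 0.05 by either tool, *Mylpf* (log2 fold change 2.71, SE 0.90, adjusted p 0.393 by edgeR), which was at 1.11 without KO replicate 4. When NTC replicate 1 was left out, 3 of 3 neutrophil markers (median log2 fold change 3.10) had an unadjusted p under 0.05 by edgeR. Of the B cell markers 0 of 2 did, against 20.1% of all genes. The 3 muscle markers then tested (*Ckm*, *Myh4* and *Mylpf*, median 4.59) were also under 0.05, and 0 of these markers were called. *Ckm* and *Myh4* passed the filter only in that fit. They had at most 13 and 2 reads in any NTC tumor, and up to 654 and 1582 in KO tumors. Genes so low in NTC pass largely through high KO counts, so the muscle count and median cannot be set against the 20.1%. *Mylpf*, tested in both fits, was at 2.75 without NTC replicate 1. The summed B cell markers ranged from 0.757 to 7.06 CPM in KO and from 0.325 to 7.27 CPM in NTC tumors. The summed neutrophil markers ranged from 7.46 to 53.0 CPM in KO and from 1.87 to 98.1 CPM in NTC tumors, and their highest value outside NTC replicate 1 in that group was 12.6 CPM. The summed skeletal muscle markers ranged from 1.42 to 183.0 CPM in KO tumors, highest in KO replicate 4 and next at 35.5 CPM, and from 0.694 to 3.77 CPM in NTC tumors. The summed keratinocyte markers ranged from 0.0890 to 19.7 CPM in KO tumors, highest in KO replicate 3 and next at 5.59 CPM, and from 0 to 1.89 CPM in NTC tumors, with the NTC maximum in NTC replicate 1 and at most 0.189 CPM in the other 4. The part of these cells in the values above was not tested.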
